A study of Mus musculus with 31 samples.

Results

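Folate and one-carbon metabolism was followed through 40 genes in the mouse mammary gland, out of 55379 genes counted per library. The genes were listed by name for their known place in the pathway, not by measured values, but with earlier results of these data known. Each matched 1 gene by its GRCm39 symbol. They comprised 8 genes of folate transport and storage, 10 of the cytosolic folate cycle, 10 of the mitochondrial folate cycle and glycine cleavage, 9 of the methionine cycle and transsulfuration, and 3 of serine synthesis. Poly-A RNA was sequenced from 31 C57BL/6J dams killed on lactation day 10. Dams ate a breeder diet with 4 mg/kg folic acid (FA) or the same base diet with 24 mg/kg FA from 2 weeks before mating, and received daily saline or 20 mg/kg fluoxetine, a selective serotonin reuptake inhibitor, from embryonic day 13. The labels gave 8 dams on breeder diet + saline, 7 on breeder diet + fluoxetine, 8 on FA diet + saline and 8 on FA diet + fluoxetine, whereas the methods text of the study gives these group sizes the other way round for the fluoxetine groups. The design held no diet low in FA.

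Folate carries single carbon units between serine, glycine, formate, purines, thymidylate and methionine. In mitochondria serine and glycine are broken down to charge the folate there. In the cytosol, charged folate builds nucleotides or regenerates methionine, whose activated form, S-adenosylmethionine, is the methyl donor of the cell. The lactating gland is a secretory epithelium that also exports folate into milk, with the receptor *Folr1* known from this epithelium, while its cells divide little at peak lactation.

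Libraries held between 15412542 and 36000439 counts, and the 40 genes together took between 0.0601% and 0.118% of them. Of the 40 genes, 37 passed the filter on low counts and were tested among 14362 genes. *Ftcd* and *Bhmt*, a formiminotransferase and the betaine-dependent methionine synthase, both known from liver, had 0 counts in all 31 dams, which allows up to 0.243 CPM (reads scaled to a common library size by TMM) in the library with the smallest scaled size. *Slc19a1*, the reduced folate carrier, had 237 counts over 28 dams and was not tested. The dam numbered 3 of FA diet + fluoxetine stood apart from the others. Its 10 secretory epithelium markers summed to 40419 CPM against 217558 to 675276 CPM in the other 30 dams, its 7 macrophage markers to 150 CPM against 21.3 to 44.5 CPM, and its 4 fibroblast markers to 685 CPM against 38.6 to 224 CPM. Its TMM factor, by which library sizes are scaled, was 3.04 against 0.716 to 1.57 in the others. Values that leaving out this dam moved by more than 1.5 times, or to the other side of 0 or of a p of 0.05, are also given without it. In whole tissue, fewer cells of a type and less RNA per cell cannot be told apart.

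Levels between genes were compared as CPM per kilobase of merged exons. *Folr1* (ENSMUSG00000001827, chromosome 7 from 101507537 to 101520014), the folate receptor anchored in the membrane, was the most abundant of the 40 at 50.3 CPM per kilobase, at percentile 98.6 of all tested genes. *Phgdh*, the first enzyme of serine synthesis, followed at 19.4 CPM per kilobase, and 3 enzymes tied to glycine came next. These were *Gldc* at 9.72, *Gnmt* at 9.28 and *Gcsh* at 9.17 CPM per kilobase, a glycine decarboxylase, the glycine methyltransferase that consumes S-adenosylmethionine, and the carrier protein of glycine cleavage. The standard deviation of *Gldc*, *Gnmt* and *Gcsh* over dams exceeded the distance between their means, and their order was not tested. *Folr1* and *Phgdh* held the first and second places also when levels were divided by the length of the canonical transcript, on which *Gldc* took place 6.

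**Figure D1:**
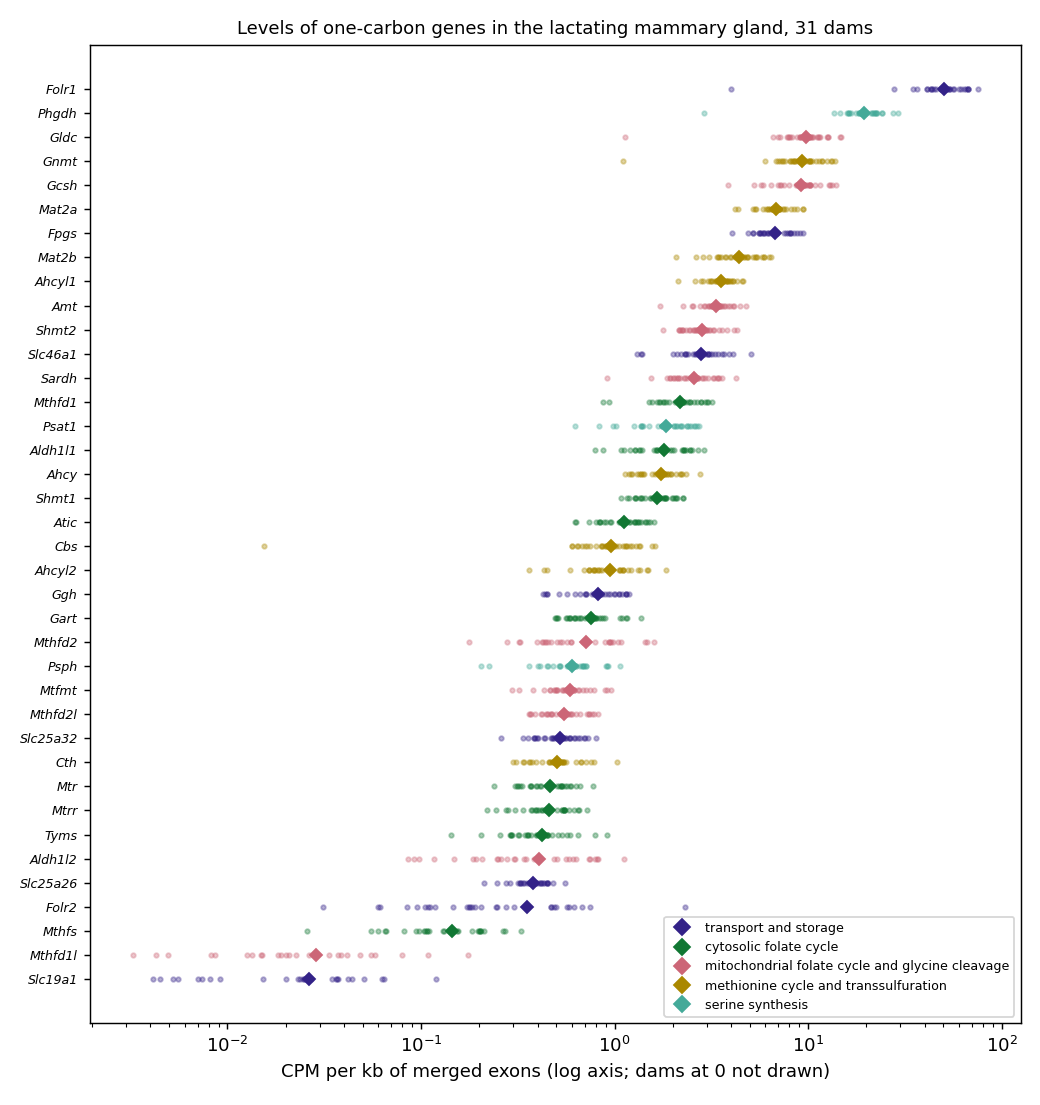
Level of each of the 38 detected genes, as CPM per kilobase of merged exons on a log axis. Small points are the 31 dams, with dams at 0 left out, diamonds are the means over dams, and colours mark the 5 compartments. *Folr1* stood highest at 50.3 and *Slc19a1* lowest at 0.0263 CPM per kilobase.

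Below these, the methyl donor enzymes *Mat2a* and *Mat2b*, which make S-adenosylmethionine and regulate its making, had 6.81 and 4.42 CPM per kilobase, and *Fpgs*, which adds the glutamate tail that keeps folate in the cell, had 6.74. The serine hydroxymethyltransferase of mitochondria, *Shmt2*, and that of the cytosol, *Shmt1*, had 2.82 and 1.66 CPM per kilobase. The intestinal proton-coupled carrier *Slc46a1* had 2.80 and the reduced folate carrier *Slc19a1* only 0.0263 CPM per kilobase. On this scale the lowest tested genes were *Mthfd1l*, the mitochondrial formyl-folate ligase that yields formate, at 0.0286, and *Mthfs* at 0.145 CPM per kilobase. Per kilobase of the canonical transcript *Mthfd1l* had 0.0896, but *Mthfs* had 1.77 and took place 24. *Mthfs* also overlaps *Gm29094* on the same strand. The thymidylate synthase gene *Tyms*, whose product serves DNA synthesis, had 0.421, and the mitochondrial dehydrogenases *Mthfd2* and *Mthfd2l* had 0.709 and 0.550 CPM per kilobase.

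The 250 bases before the canonical transcription start (GRCm39) are shown for *Folr1*, the most abundant gene of the list, and for *Phgdh* and *Psat1*, which varied together between dams, as given with the serine synthesis genes. CpG dinucleotides are in capitals, and each sequence is written 5′ to 3′ on the minus strand of the chromosome. The positions are chr7:101520015-101520264, chr3:98247307-98247556 and chr19:15902424-15902673.
Folr1: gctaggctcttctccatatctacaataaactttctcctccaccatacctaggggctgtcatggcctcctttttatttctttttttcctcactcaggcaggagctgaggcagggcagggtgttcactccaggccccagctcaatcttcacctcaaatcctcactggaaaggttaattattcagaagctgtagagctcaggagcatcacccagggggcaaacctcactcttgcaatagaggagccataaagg
Phgdh: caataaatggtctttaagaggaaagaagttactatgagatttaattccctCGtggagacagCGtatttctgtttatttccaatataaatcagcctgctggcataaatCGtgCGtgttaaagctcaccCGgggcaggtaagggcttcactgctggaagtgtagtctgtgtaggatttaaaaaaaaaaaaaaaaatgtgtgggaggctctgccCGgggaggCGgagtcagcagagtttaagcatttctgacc
Psat1: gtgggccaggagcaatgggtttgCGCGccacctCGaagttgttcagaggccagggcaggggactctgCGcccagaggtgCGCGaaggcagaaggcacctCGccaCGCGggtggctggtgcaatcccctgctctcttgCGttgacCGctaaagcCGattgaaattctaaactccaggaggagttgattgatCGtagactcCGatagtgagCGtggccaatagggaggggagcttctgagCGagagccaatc
The *Folr1* stretch had 0 CpG, as had 7.39% of 21757 protein-coding promoters, the *Phgdh* stretch 7 and the *Psat1* stretch 16. Over the 40 genes the number ran from 0 to 33 with a median of 9, beside a median of 8 over all promoters. The letters TGATGNAA, the composite element of ATF4 and C/EBP proteins known from amino acid response genes, were searched on both strands from 250 bases before the start to 50 after it. They were in 0 of the 40 promoters and in 3.84% of all promoters. At so low a share 0 of 40 does not set these genes apart, and the difference was not tested.

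The first question of the design was whether dietary FA moved these genes. No member passed an FDR of 10% for FA diet against breeder diet by edgeR's quasi-likelihood test (background 0% of all genes), and the likelihood ratio test, DESeq2 and limma voom with sample quality weights also gave 0 members. At an unadjusted p of 0.05 or below the test gave 4 of 37 members (10.8%, a share that rests on these 4 genes), beside 5.08% of all genes. Without dam 3 it gave 6 of 37 members beside 6.99%. The median log2 fold change over the 37 members was 0.048 against 0.017 over all genes, with 24 members higher and 13 lower on the FA diet. All tested genes were 7746 higher and 6616 lower. Without dam 3 the members' median was 0.090 against -0.0052 over all genes, with 26 higher and 11 lower. The split differed by drug, with 24 members higher and 13 lower among saline dams (median 0.13), and 14 higher and 23 lower among fluoxetine dams (median -0.051). Among fluoxetine dams without dam 3 it was 19 higher and 18 lower (median 0.0055). The difference between these splits was not tested. The 95% interval of the change lay within 1.5-fold in either direction for 29 of the 37 members.

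Among the transport and storage genes 5 of 7 were higher and 2 lower on the FA diet, and 1 had an unadjusted p of 0.05 or below. *Folr1* had 230, 324 and 408 CPM (lowest, median and highest dam) on breeder diet + saline, and 183, 302 and 395 on breeder diet + fluoxetine. It had 270, 389 and 499 CPM on FA diet + saline, and 26.5, 357 and 441 on FA diet + fluoxetine. The groups overlapped throughout, and the lowest value was that of dam 3. Its diet effect was a log2 fold change of 0.17 (standard error 0.196, unadjusted p = 0.389, adjusted p = 0.964). Without dam 3 it was 0.26 (standard error 0.107, unadjusted p = 0.0231, adjusted p = 0.658).

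*Folr2* (chromosome 7 from 101489195 to 101506401), a folate receptor known from tissue macrophages, had 512 counts in all. Its lowest, median and highest dams were at 0.151, 0.284 and 0.924 CPM on breeder diet + saline, and at 0.0954, 0.275 and 0.557 on breeder diet + fluoxetine. They were at 0.173, 0.749 and 0.986 CPM on FA diet + saline, and at 0.0496, 0.348 and 3.71 on FA diet + fluoxetine. The lowest and the highest of all 31 values thus lay in the same group, and the highest was dam 3. Its diet effect was a log2 fold change of 1.13 (standard error 0.446, unadjusted p = 0.0158, adjusted p = 0.933), and 0.67 without dam 3 (unadjusted p = 0.0993). Of the 7 macrophage markers 6 were higher on the FA diet, with a median log2 fold change of 0.49 and none at an unadjusted p of 0.05 or below. Without dam 3 the number was 4 of 7 with a median of 0.031, and among saline dams 5 of 7 with a median of 0.22. Their part in the *Folr2* result was not tested.

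*Slc19a1* had a mean of 0.242 ± 0.130 CPM (SD, n = 8) on breeder diet + saline and 0.307 ± 0.260 CPM (SD, n = 7) on breeder diet + fluoxetine. Among FA dams they were 0.256 ± 0.225 CPM (SD, n = 8) with saline and 0.322 ± 0.413 CPM (SD, n = 8) with fluoxetine. The last of these was the highest group mean with dam 3 and the lowest without it, at 0.185 ± 0.159 CPM (SD, n = 7). At this depth the gene was not tested in the main fit, and no difference between groups was read from these means. The gene overlaps *Col18a1* on the other strand, and the strand option of the counting is not stated. *Slc46a1*, *Slc25a32*, *Slc25a26*, *Fpgs* and *Ggh*, whose products carry folate or S-adenosylmethionine across membranes or add and remove glutamate tails, had diet log2 fold changes between -0.069 and 0.076, and between -0.035 and 0.12 without dam 3.

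In the cytosolic folate cycle 7 of 9 genes were higher and 2 lower on the FA diet, and 6 and 3 without dam 3. *Tyms* (chromosome 5 from 30263198 to 30278633) had 1.32, 1.98 and 2.90 CPM (lowest, median and highest dam) on breeder diet + saline and 1.86, 2.92 and 5.91 on FA diet + saline. Under fluoxetine it had 0.929, 2.66 and 3.83 CPM on the breeder diet and 1.65, 2.61 and 4.22 on the FA diet. With saline the median of the FA dams lay just above the highest breeder dam, and with fluoxetine the medians differed little. The log2 fold change for diet was 0.38 (standard error 0.179, unadjusted p = 0.0413, adjusted p = 0.933). It was 0.72 among saline dams (unadjusted p = 0.00687, adjusted p = 0.780) and 0.039 among fluoxetine dams (unadjusted p = 0.878), and the difference between these had an unadjusted p of 0.0653 and an adjusted p of 0.977. Among saline dams 4 of 37 members had an unadjusted p of 0.05 or below for diet, beside 6.09% of all genes, and among fluoxetine dams 1 of 37, beside 3.75%.

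*Mthfd1*, the trifunctional enzyme that interconverts the cytosolic one-carbon folates, had means of 10.9 ± 1.78 and 12.4 ± 2.26 CPM (SD, n = 8 each) in the saline groups of the breeder and the FA diet. With fluoxetine its means were 9.87 ± 3.78 CPM (SD, n = 7) and 9.57 ± 2.77 CPM (SD, n = 8), and its diet log2 fold change was 0.067 (95% interval from -0.22 to 0.35), or 0.11 without dam 3. *Shmt1*, which makes glycine from serine, had 9.96 ± 2.69 and 11.3 ± 2.15 CPM (SD, n = 8 each) with saline, and 11.4 ± 1.05 CPM (SD, n = 7) and 10.6 ± 2.24 CPM (SD, n = 8) with fluoxetine. Its diet change was 0.033 with an interval from -0.19 to 0.25, or 0.064 without dam 3. The methionine synthase *Mtr*, its reductase *Mtrr*, the purine enzymes *Atic* and *Gart*, *Mthfs* and *Aldh1l1*, which oxidises formyl-folate, had changes between -0.19 and 0.11, and between -0.17 and 0.15 without dam 3.

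**Figure D2:**
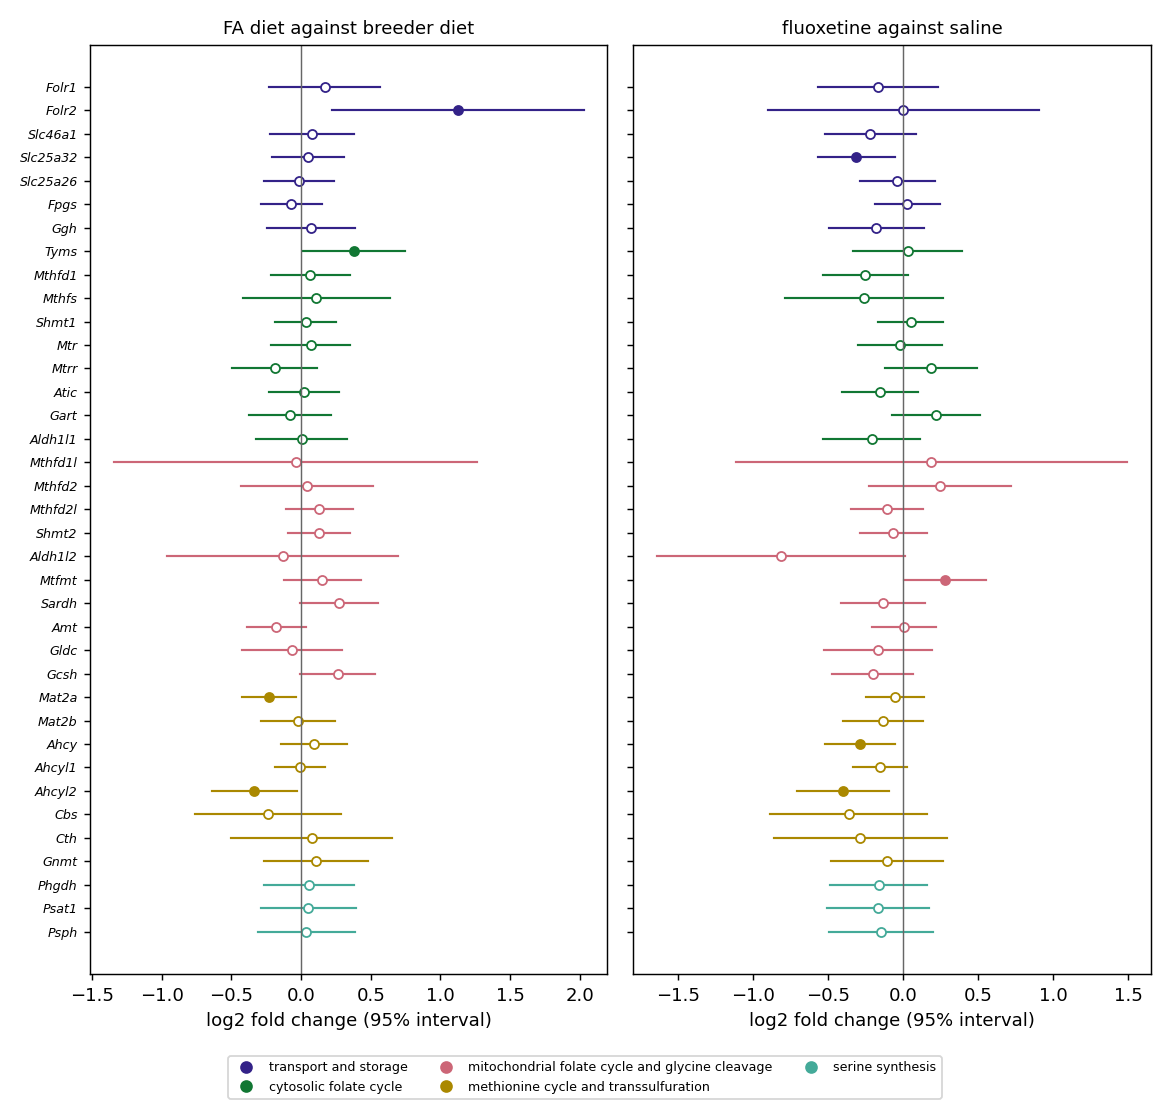
log2 fold changes of the 37 tested genes with 95% intervals, for FA diet against breeder diet (left) and fluoxetine against saline (right), coloured by compartment. Filled points have an unadjusted p of 0.05 or below, and no gene passed an FDR of 10%. For diet 24 points lie above 0, and for fluoxetine 27 lie below it.

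In the mitochondrial folate cycle and glycine cleavage 6 of 10 genes were higher and 4 lower on the FA diet (7 and 3 without dam 3), and none had an unadjusted p up to 0.05. The closest were *Sardh*, which oxidises sarcosine to glycine, with a log2 fold change of 0.27 (standard error 0.137, unadjusted p = 0.0544), and *Gcsh* with 0.26 (standard error 0.133, unadjusted p = 0.0588). Without dam 3 *Sardh* had 0.33 (unadjusted p = 0.00480, adjusted p = 0.583) and *Gcsh* 0.31 (unadjusted p = 0.00966, adjusted p = 0.583). The median dam of *Sardh* was at 14.2 CPM on breeder diet + saline, 12.9 on breeder diet + fluoxetine, and 17.4 in both FA groups. That of *Gcsh* was at 20.5 and 17.3 CPM on the breeder diet and at 23.3 and 22.3 CPM on the FA diet, with saline and fluoxetine. Of the other proteins of glycine cleavage, *Gldc* had -0.063 (unadjusted p = 0.724), or 0.016 without dam 3, and the aminomethyltransferase *Amt* had -0.18 (unadjusted p = 0.101). *Shmt2*, which splits serine in mitochondria, had median dams at 11.4 CPM on breeder diet + saline, 10.1 on breeder diet + fluoxetine, 12.3 on FA diet + saline and 10.5 on FA diet + fluoxetine. Its diet change was 0.13 (95% interval from -0.09 to 0.35), and its gene overlaps *Ndufa4l2* on the other strand.

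In the methionine cycle and transsulfuration 3 of 8 genes were higher and 5 lower on the FA diet, but 5 higher and 3 lower without dam 3. Both genes at an unadjusted p of 0.05 or below were lower. *Mat2a* (chromosome 6 from 72409779 to 72416684) had 29.0, 33.8 and 43.9 CPM (lowest, median and highest dam) on breeder diet + saline and 24.9, 30.5 and 35.3 on FA diet + saline. Under fluoxetine it had 19.6, 32.99 and 44.2 CPM on the breeder diet and 20.3, 30.3 and 33.3 on the FA diet. The FA median lay below the breeder median with both drugs, and the single dams overlapped. The log2 fold change was -0.23 (standard error 0.0954, unadjusted p = 0.0221, adjusted p = 0.933), and -0.25 without dam 3 (unadjusted p = 0.0112, adjusted p = 0.583). The gene overlaps *Ggcx* on the other strand.

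*Ahcyl2* (chromosome 6 from 29768010 to 29912309), a relative of S-adenosylhomocysteine hydrolase known for regulating ion transporters, had 15.8, 23.7 and 35.4 CPM on breeder diet + saline and 11.3, 15.8 and 25.5 on FA diet + saline. It had 8.33, 16.2 and 20.6 CPM on breeder diet + fluoxetine and 6.91, 14.5 and 23.3 on FA diet + fluoxetine. Control dams stood highest, and the other 3 groups had medians close to each other. The log2 fold change for diet was -0.34 (standard error 0.150, unadjusted p = 0.0314, adjusted p = 0.933). The hydrolase *Ahcy* itself, which clears the product of methylation, had 0.090 (unadjusted p = 0.441) and *Ahcyl1* -0.0056 (95% interval from -0.19 to 0.17), or 0.026 without dam 3. *Cbs* and *Cth*, which turn homocysteine into cysteine, had -0.24 and 0.075 with intervals from -0.76 to 0.28 and from -0.50 to 0.65, and *Gnmt* had 0.11. Without dam 3 these 3 were -0.15, 0.17 and 0.19, none with an unadjusted p of 0.05 or below.

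**Figure D3:**
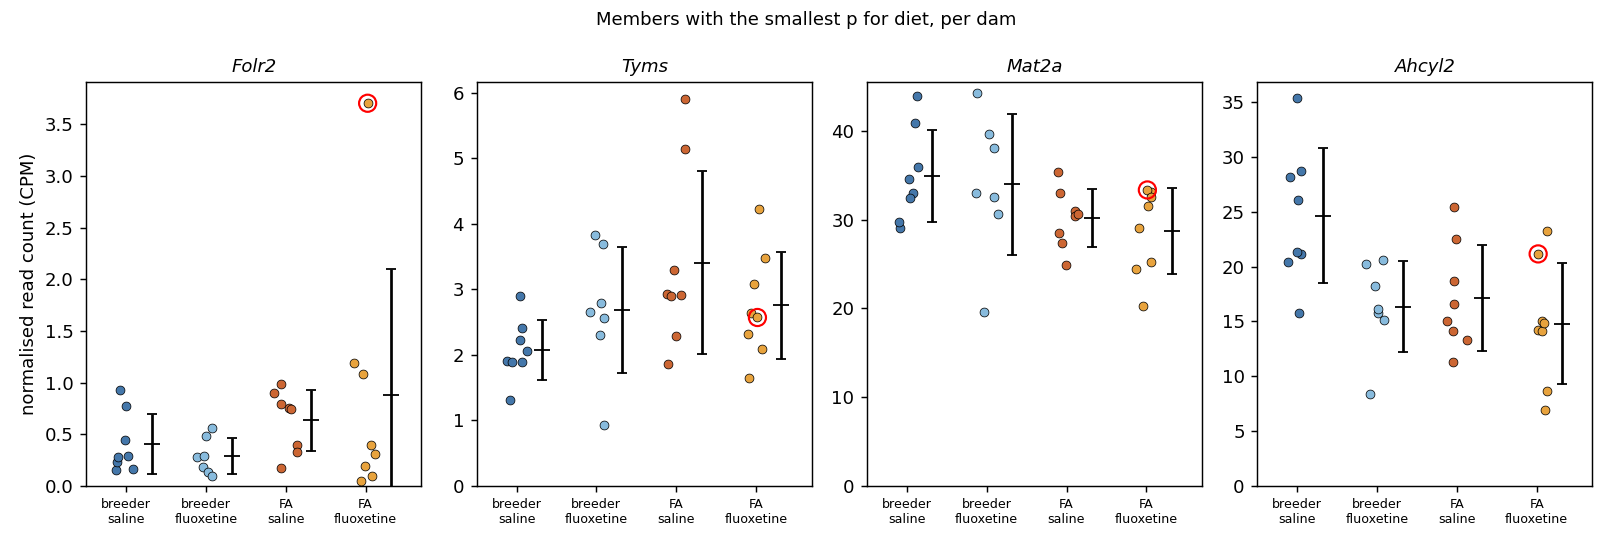
Normalised read count (CPM) per dam of *Folr2*, *Tyms*, *Mat2a* and *Ahcyl2* in the 4 groups, with the group mean and SD beside the points and dam 3 of FA diet + fluoxetine ringed. The groups overlap for all 4 genes, and the ringed dam holds the highest *Folr2* value, 3.71 CPM.

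The 3 serine synthesis genes *Phgdh*, *Psat1* and *Psph*, which act in this order, had diet log2 fold changes of 0.059, 0.051 and 0.037, none with an unadjusted p of 0.05 or below. *Phgdh* had a median of 55.4 CPM on breeder diet + saline, 54.6 on breeder diet + fluoxetine, 56.6 on FA diet + saline and 53.9 on FA diet + fluoxetine. *Psat1* had medians of 10.9, 10.4, 12.7 and 10.5 CPM in the same order of groups. The 95% interval of *Phgdh* for diet ran from -0.26 to 0.38, and without dam 3 the change was 0.14 (unadjusted p = 0.157), beside 0.11 for *Psat1* and 0.090 for *Psph*. All 3 were higher on the FA diet among saline dams (median 0.26) and lower among fluoxetine dams (median -0.16), where 1 was higher and 2 lower without dam 3. None of the 3 had an unadjusted p of 0.05 or below in these or for the interaction.

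The second comparison was fluoxetine against saline over both diets. Again 0 members passed an FDR of 10% by edgeR's quasi-likelihood test, beside 0.0209% of all genes, and the 3 other tools gave 0 as well. Members with an unadjusted p up to 0.05 numbered 4 of 37 beside 9.92% of all genes, and 5 of 37 beside 9.21% without dam 3. These shares were near the background. The median over the members was -0.15 on the log2 scale against 0.019 over all genes, and 27 members were lower and 10 higher under fluoxetine. Without dam 3 the median was -0.098 against -0.0071 over all genes, and 28 members were lower. On the breeder diet alone 22 were lower with a median of -0.063, and on the FA diet 30 with a median of -0.22. All genes were 7687 higher and 6675 lower. Of the 10 secretory epithelium markers 9 were lower under fluoxetine with a median of -0.13, and 8 with a median of -0.082 without dam 3. On the breeder diet 5 of the 10 were lower (median -0.0077) and on the FA diet 9 (median -0.23). Without dam 3 the FA diet had 8 lower, with a median of -0.083. Their part in the members' direction was not tested.

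All 8 tested genes of the methionine cycle and transsulfuration and all 3 of serine synthesis had negative fluoxetine log2 fold changes, with medians of -0.22 and -0.16, and all 11 were also negative without dam 3 (medians -0.16 and -0.098). On the breeder diet alone 7 of the 8 were lower, but 2 of the 3 serine synthesis genes were higher (median 0.040). On the FA diet all 11 were lower, with a median of -0.38 for serine synthesis. Without dam 3, 7 of the 8 and all 3 were lower there, with *Gnmt* at 0.0089. *Ahcyl2* had -0.40 (standard error 0.150, unadjusted p = 0.0120, adjusted p = 0.409), and -0.46 without dam 3 (unadjusted p = 0.00423, adjusted p = 0.387). On the breeder diet alone its change was -0.59 (unadjusted p = 0.0104) and on the FA diet -0.21 (unadjusted p = 0.321), or -0.32 without dam 3. *Ahcy* had 3.89, 5.08 and 8.04 CPM (lowest, median and highest dam) on breeder diet + saline, 3.29, 4.01 and 5.49 on breeder diet + fluoxetine, 4.00, 5.70 and 6.55 on FA diet + saline and 3.58, 4.69 and 6.45 on FA diet + fluoxetine. Both fluoxetine medians lay below both saline medians, with overlap of single dams. The log2 fold change of *Ahcy* was -0.29 (standard error 0.116, unadjusted p = 0.0183, adjusted p = 0.430).

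*Cbs*, which condenses homocysteine with serine, had 9.81, 13.0 and 18.4 CPM (lowest, median and highest dam) on breeder diet + saline and 7.98, 9.80 and 13.9 on breeder diet + fluoxetine. On the FA diet it had 6.86, 11.02 and 15.3 CPM with saline and 0.175, 9.38 and 14.7 with fluoxetine. The value near 0 was dam 3. The fluoxetine log2 fold change was -0.36 (unadjusted p = 0.169) with all dams and -0.28 (standard error 0.131, unadjusted p = 0.0419, adjusted p = 0.528) without dam 3.

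*Slc25a32* (chromosome 15 from 38954620 to 38976159), the carrier that brings folate into mitochondria, had a fluoxetine log2 fold change of -0.31 (standard error 0.127, unadjusted p = 0.0196, adjusted p = 0.430). *Mtfmt*, which formylates the initiator methionyl-tRNA of mitochondria with a folate-borne carbon, was the only member at an unadjusted p of 0.05 or below with a higher level, at 0.28 (standard error 0.135, unadjusted p = 0.0468, adjusted p = 0.497). Its median dams were at 3.20 and 3.04 CPM in the saline groups on the breeder and FA diet, and at 2.83 and 4.01 CPM in the fluoxetine groups. Only the FA diet thus showed a higher fluoxetine median, with a change of 0.52 there (unadjusted p = 0.00943, adjusted p = 0.428) against 0.041 on the breeder diet, but the difference had an unadjusted p of 0.0884. Without dam 3 the overall change was 0.23 (unadjusted p = 0.0889). *Aldh1l2*, the mitochondrial formyl-folate dehydrogenase, had the lowest fluoxetine value of all members, -0.81 (standard error 0.406, unadjusted p = 0.0555), and -0.72 without dam 3 (unadjusted p = 0.0373, adjusted p = 0.515). Fluoxetine against saline on the breeder diet gave 4 of 37 members at an unadjusted p of 0.05 or below, beside 4.39% of all genes, and on the FA diet 3 of 37, beside 9.98%. Without dam 3 the FA diet gave 3 of 37, beside 6.11%. Same-numbered dams of the FA groups deviated together, and with the animal number as a block the FA diet gave 5 of 37 beside 9.5% in the fit over all dams, and 3 of 36 over FA dams alone.

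The third comparison asked whether the response to fluoxetine differed between diets. No member passed an FDR of 10% by edgeR's quasi-likelihood test (background 0%), and 3 of 37 had an unadjusted p of 0.05 or below for the interaction, beside 3.84% of all genes. The same number held without dam 3, beside 3.48%. They were 2 of the 10 tested genes of the mitochondrial folate cycle and glycine cleavage, *Mthfd2* and *Mthfd2l*, and 1 of the 7 of transport and storage, *Slc25a32*. The interaction was negative for the first 2 and positive for *Slc25a32*. *Mthfd2* (chromosome 6 from 83282673 to 83302890), a dehydrogenase and cyclohydrolase that leads one-carbon units towards formate, had 0.650, 1.60 and 3.44 CPM (lowest, median and highest dam) on breeder diet + saline and 1.56, 3.47 and 5.38 on breeder diet + fluoxetine. On the FA diet it had 1.62, 2.38 and 5.89 CPM with saline and 1.17, 2.05 and 3.82 with fluoxetine. Its median was thus higher with fluoxetine on the breeder diet and slightly lower on the FA diet, with overlap in each pair.

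The interaction of *Mthfd2* was -1.35 on the log2 scale (standard error 0.467, unadjusted p = 0.00650, adjusted p = 0.977), and -1.27 without dam 3 (unadjusted p = 0.00893). Fluoxetine against saline was 0.92 on the breeder diet (unadjusted p = 0.00956) and -0.43 on the FA diet (unadjusted p = 0.193). FA against breeder diet was 0.72 among saline dams (unadjusted p = 0.0345) and -0.63 among fluoxetine dams (unadjusted p = 0.0661). None of these passed an FDR of 10%.

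*Mthfd2l* (chromosome 5 from 91078920 to 91169231), its relative of adult tissues, had 3.94, 5.41 and 6.86 CPM on breeder diet + saline, 4.80, 5.72 and 7.82 on breeder diet + fluoxetine, 4.58, 7.27 and 8.89 on FA diet + saline and 4.02, 5.27 and 8.01 on FA diet + fluoxetine. FA diet + saline had the highest median. The interaction was -0.54 (standard error 0.237, unadjusted p = 0.0303, adjusted p = 0.977). *Slc25a32* had 3.12, 3.74 and 4.98 CPM on breeder diet + saline, 1.61, 2.43 and 3.62 on breeder diet + fluoxetine, 2.101, 3.01 and 4.39 on FA diet + saline and 2.23, 3.26 and 4.34 on FA diet + fluoxetine. The fluoxetine dams of the breeder diet were the lowest group, and 6 of these 7 lay below all 8 control dams. Its interaction was 0.61 (standard error 0.255, unadjusted p = 0.0231, adjusted p = 0.977), with a fluoxetine change of -0.61 on the breeder diet (unadjusted p = 0.00207) and -0.0090 on the FA diet, or -0.090 without dam 3.

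**Figure D4:**
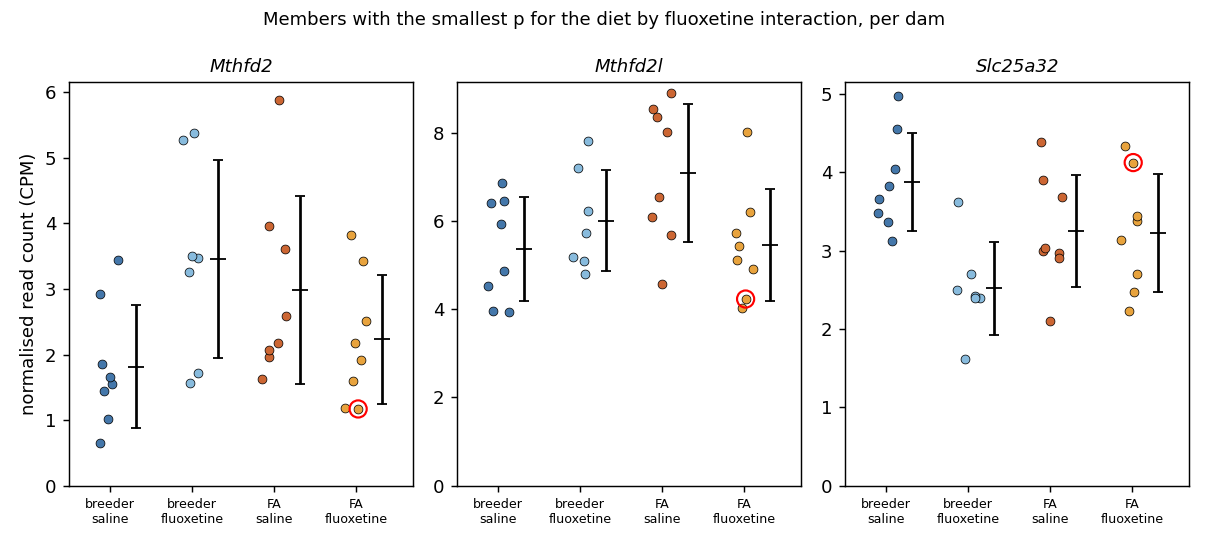
Normalised read count (CPM) per dam of *Mthfd2*, *Mthfd2l* and *Slc25a32* in the 4 groups, with the group mean and SD beside the points and dam 3 of FA diet + fluoxetine ringed. The medians of *Mthfd2* were 1.60, 3.47, 2.38 and 2.05 CPM from left to right, and the dams of different groups overlap.

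Dam 3 of FA diet + fluoxetine lay outside the range of the other dams for many of these genes. After TMM scaling, dam 3 of FA diet + fluoxetine was below all other 30 dams for 15 of the 40 genes (37.5%) and above all of them for 5 (12.5%), beside 20.5% and 21.9% of all tested genes. Scaled by total counts instead, it was below all others for 7 and above all for 21 of the 40, beside 3.95% and 69.9% of all tested genes. Below on both scales were *Folr1*, *Aldh1l2*, *Gldc*, *Cbs*, *Cth*, *Gnmt* and *Phgdh*. Below after TMM scaling alone were *Fpgs*, *Sardh*, *Amt*, *Gcsh* and *Psat1*, while *Shmt1*, *Mat2b* and *Ahcyl1* turned from below all to above all by total counts. In TMM-scaled CPM, *Folr1* was at 26.5 CPM against 183 to 499 CPM in the others, *Gldc* at 11.3 against 65.8 to 148, *Gnmt* at 1.96 against 10.5 to 24.1 and *Phgdh* at 8.16 against 38.4 to 82.7. *Cth* and *Aldh1l2* had 0 counts in this dam. Above on both scales were *Folr2*, *Slc19a1*, *Gart*, *Mthfd1l* and *Mtfmt*. *Mat2a* (33.3 CPM), *Tyms* (2.57 CPM) and *Atic* (10.7 CPM) were within the range of the others after TMM scaling and above it by total counts. The markers of secretory epithelium were low and those of macrophages and fibroblasts high in the same dam, as given above, and their part in these values was not tested.

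Serine synthesis genes varied together between dams. After the group means were removed, *Phgdh* and *Psat1* had a Pearson r of 0.63 over 31 dams (permutation p = 0.000440, adjusted over 10 pairs of genes p = 0.00147) and a Spearman rho of 0.53 (permutation p = 0.00135, adjusted p = 0.00675). Without dam 3 the r was 0.47 (adjusted permutation p = 0.0239), and without the 2 dams farthest from the median of *Phgdh* it was 0.41 (permutation p = 0.0150). Within groups r was 0.80 on breeder diet + saline, 0.19 on breeder diet + fluoxetine, 0.64 on FA diet + saline and 0.74 on FA diet + fluoxetine. *Phgdh* and *Psph* had an r of 0.63 (permutation p = 0.000290, adjusted p = 0.00145), a rho of 0.51 (permutation p = 0.00250, adjusted p = 0.00833), and 0.56 without dam 3. *Psph* overlaps *Cct6a* on the other strand.

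*Psat1* also varied with *Asns*, asparagine synthetase, a gene of the amino acid response that is not in the list of 40. Their r was 0.70 and rho 0.68 (permutation p = 8e-05, adjusted p = 0.000800 for each), and r was 0.61 both without dam 3 (adjusted permutation p = 0.00910) and without the 2 farthest dams. Within breeder diet + fluoxetine it was 0.015, against 0.65 to 0.87 in the other 3 groups. The mitochondrial pair *Shmt2* and *Mthfd2* had an r of 0.49 (permutation p = 0.00746, adjusted p = 0.0186) and a rho of 0.47 (permutation p = 0.0115, adjusted p = 0.0288), and an r of 0.37 without the 2 farthest dams (permutation p = 0.0625) and 0.46 without dam 3. Of the other 6 pairs, none had an adjusted p at or below 0.05 for both coefficients. *Folr2* and the macrophage gene *Mrc1* had an r of 0.41, which was -0.11 without dam 3. The genes of a pair share library and scaling, and dams were the units of the permutations.

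**Figure D5:**
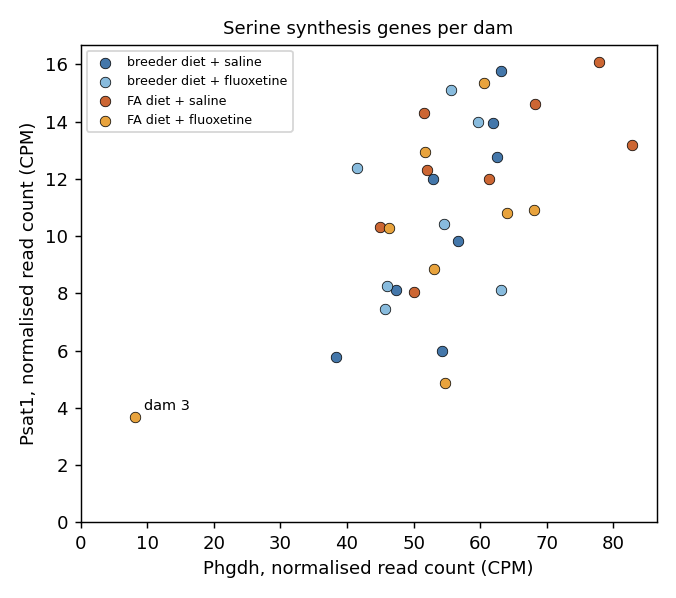
*Psat1* against *Phgdh* as normalised read counts (CPM), 1 point per dam, coloured by group. Dam 3 of FA diet + fluoxetine lies at 8.16 CPM of *Phgdh* and 3.67 CPM of *Psat1*, below all other 30 dams on both axes at this TMM scaling, whereas by total counts it was the lowest for *Phgdh* but not for *Psat1*.

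Neighbouring pathways were read through 8 lists with 79 genes, of which 76 were tested. For diet 1 of 76 had an unadjusted p of 0.05 or below, beside the background of 5.08%. This was *Nnmt*, the nicotinamide methyltransferase that spends S-adenosylmethionine, whose mean was 1.24 ± 0.780 CPM (SD) in the 15 breeder dams and 2.03 ± 0.935 CPM (SD) in the 16 FA dams, or 0.77 higher on the log2 scale (standard error 0.268, edgeR adjusted p = 0.933). Without dam 3, 4 of 76 genes had such a p for diet, beside 6.99%. For fluoxetine 6 of 76 had one, beside 9.92%, and 4 without dam 3, beside 9.21%. No gene of these lists passed an FDR of 10% by edgeR. With all dams, purine synthesis and cobalamin handling had 0 genes at an unadjusted p of 0.05 or below for diet or fluoxetine. *Tcn2*, of the cobalamin list, had a diet log2 fold change of 0.21 (edgeR unadjusted p = 0.162). Without dam 3 it was 0.28 (unadjusted p = 0.00395, adjusted p = 0.583).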

How the data were processed

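Poly-A libraries of 31 mammary glands were analysed from the deposited read counts per gene, which the authors made from paired reads checked with FastQC 0.11.7, trimmed with Trim Galore 0.4.4, aligned with HISAT2 to GRCm39 and counted with HTSeq in intersection-nonempty mode. The strand option and the annotation release are not given in the sources used here. Counts were whole and not normalised. Groups came from the sample labels. Genes of low count were removed (filterByExpr), leaving 14362 of 55379. The remaining counts were scaled by TMM and fitted per group with edgeR 4.0.16 (R 4.3.3), using the quasi-likelihood test with robust estimation and Benjamini-Hochberg adjustment over all genes. The effects were diet, fluoxetine and their interaction, at an FDR of 10%. CPM values use TMM library sizes, and log2 fold changes a prior count.

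Standard errors are Wald errors of the group contrasts. Correlations used 100000 permutations of log2 CPM with group means removed. Gene positions and promoters came from GENCODE vM39. Scripts were tested on simulated data. Depth ranged from 15412542 to 36000439 counts, and intervals cover the spread between these dams. Full statistics were given for members with an unadjusted p of 0.05 or below in any of the 3 effects, and group levels for a fixed set of 14. Members with a changed p without dam 3 (*Sardh*, *Gcsh*, *Aldh1l2*) were added after their values were seen. The members and lists were chosen with earlier results of these data known. No 2 libraries were near-duplicates (lowest chi-square per degree of freedom 14.9). Alternatives used DESeq2 1.42.0, limma 3.58.1, other filters, scalings and models, and each dam left out. Same-numbered dams of FA diet + saline and FA diet + fluoxetine deviated together from their group means (r from 0.12 to 0.43 in 7 of 7 pairs, and 6 of 8 fluoxetine dams correlated best with their own number), as a feature of the data that the labels do not explain. Over all groups 12 of 28 pairs exceeded an r of 0.1. The values of 1 further gene of the neighbouring pathways are not reported here.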

Additional observations from a re-analysis of the deposited data

Results flagged for a closer look

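Among 68 combinations of a gene and a group whose levels were given, 5 held a dam far from the rest of its group, with a gap to the nearest dam above the 95% critical value of Dixon's test. Chance alone flags about 1 in 20. Dam 3 of FA diet + fluoxetine gave 4 of the 5. It had 26.5 CPM of *Folr1* against 284 to 441 CPM in the other 7 dams, 3.71 CPM of *Folr2* against 0.0496 to 1.19 CPM, 8.16 CPM of *Phgdh* against 46.3 to 68.0 CPM, and 1.28 CPM of *Slc19a1* against 0 to 0.390 CPM. The remaining one was dam 9 of breeder diet + fluoxetine with 13.9 CPM of *Cbs* against 7.98 to 10.4 CPM. No cause was tested.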

How the results depend on the processing

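No member passed an FDR of 10% in any of the 3 effects under any alternative, and no log2 fold change given for a member chosen by its p changed sign. The 2 settings that moved counts most were the replicate block and limma voom with sample quality weights, the latter chosen after seeing the data. With the replicate block, members at an unadjusted p of 0.05 or below numbered 2 for fluoxetine (4 without it) and 1 for the interaction (3 without it). In the 3 effects the block moved no other count of members by more than 1.5 times. Over all 4 groups same-numbered dams correlated between -0.22 and 0.43, so the numbers did not pair the dams there, while those of the FA groups did correlate. For fluoxetine on the FA diet the block gave 5 members, against 3 without it and 3 with the block over FA dams alone. With quality weights 9 members had such a p for fluoxetine. With 1 dam left out the count ran from 2 (without dam 12 of breeder diet + saline) to 6 (without dam 3 of FA diet + fluoxetine) for diet, from 3 to 6 for fluoxetine, and from 2 to 5 (without dam 8 of breeder diet + fluoxetine) for the interaction. The diet log2 fold change of *Folr2* ran from 0.67 to 1.26 in these fits, and was 0.44 with quality weights. Over all genes, fluoxetine calls at an FDR of 10% numbered 3, against 45 by likelihood ratio test, 70 by DESeq2, 52 with quality weights, 1 without a filter and 0 with the block. Single dams moved this number as well, to 0 when breeder diet + fluoxetine lost dam 8, to 16 when it lost dam 7, to 19 when breeder diet + saline lost dam 4, and to 11 when FA diet + fluoxetine lost dam 2. The members' diet median ran from 0.026 (dam 9 of breeder diet + fluoxetine left out) to 0.090 (dam 3 left out). The causes were not tested. Depth limits *Slc19a1*, *Folr2* and *Mthfd1l*, with 237, 512 and 297 counts in all.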
